A study of Mus musculus with 6 samples.

Results

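Schwann cells and satellite glia are the support cells of peripheral nerves and ganglia, and 8 genes of this lineage were followed in the developing soft palate with and without the transcription factor Dlx5. The 8 genes, Sox10, Erbb3, Ngfr, Gfra3, Cdh19, Fabp7, Pmp22 and S100b, were taken by symbol from a table of 49492 gene rows. All 8 passed a filter on low values that kept 16218 genes. The soft palate is the rear, muscular part of the palate. Messenger RNA of this tissue at stage E14.5 was sequenced in 3 libraries labelled wild type (the controls) and 3 labelled Dlx5-/-, which differ by label in no other allele, agent or age. The sources used here do not give the kind of Dlx5 allele, the strain, or whether tissue of several embryos was pooled. The labels do not tie a library to an embryo, so the p-values describe the spread among these 6 libraries, part of which may be technical.

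As background, Schwann cells and satellite glia both arise from neural crest cells that keep Sox10 and settle along axons or around ganglion neurons. Axons carry the growth factor neuregulin 1, which acts on the receptor Erbb3 paired with Erbb2 and keeps Schwann cell precursors alive. The cells mature from precursors, which express Cdh19, through immature Schwann cells, which express Fabp7, Ngfr and S100b, towards cells that wrap axons in myelin. Several of the 8 genes are not restricted to this lineage: Ngfr and Gfra3 are also made by sensory neurons, Fabp7, Sox10 and Erbb3 by glia of the brain, Sox10 and Erbb3 by melanocytes, S100b by cartilage, and Pmp22 by mesenchyme.

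The libraries held between 6891798 and 11922442 estimated counts. Of these, 6 rows that collect ribosomal RNA reads held from 13.0% (knockout replicate 3) to 29.0% (knockout replicate 2). Counts of Dlx5 itself were 242, 193 and 113 for control replicates 1, 2 and 3 and 7, 15 and 17 for knockout replicates 1, 2 and 3, and each library therefore matched its label. It fell by 3.93 on the log2 scale (adjusted p = 0.0205, edgeR's quasi-likelihood test) and was the only gene called. The library that stood apart was knockout replicate 3, which carried brain transcripts: the astrocyte gene Gfap measured 40.4 CPM there (counts scaled to a common library total) and at most 2.37 CPM elsewhere. Many of the estimates below are therefore also given without it. Markers of palate mesenchyme were present in every library, with a summed level of 2057 to 4258 CPM over 8 genes. Most of it came from Col1a1, which alone measured 1072 to 3222 CPM. Of these 8, 3 were higher in the knockout at an unadjusted p under 0.05 and 0 lower (5.6% and 7.23% of all genes). Prrx1 (log2 fold change 0.45, adjusted p = 0.149, edgeR) and Pdgfra (0.32, 0.308) lay higher without overlap. Without knockout replicate 3 their estimates were 0.54 and 0.18. Of the 8 estimates 5 lay above 0 and 3 below. The 3 were Msx1 (-0.76), Col1a1 (-0.49) and Dcn (-0.13), all with overlapping groups.

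None of the 8 genes was called at an adjusted p of 0.05, against 0.00617% of all genes tested. Ngfr and Gfra3 lay lower in every knockout library than in every control library, the estimates for Sox10, Erbb3 and S100b lay above 0 with overlapping groups, and those for Cdh19, Fabp7 and Pmp22 lay below 0 with overlapping groups. The median log2 fold change of the 8 genes was -0.05, beside 0.01 for all genes kept. Groups did not overlap for 2 of the 8, both lower in the knockout; of all genes tested, 9.71% lay lower without overlap and 9.48% higher. The same 2 genes had an unadjusted p under 0.05, a share to be read against 7.23% of all genes in the lower direction, and 0 of the 8 did in the higher direction, against 5.6%.

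**Figure D1:**
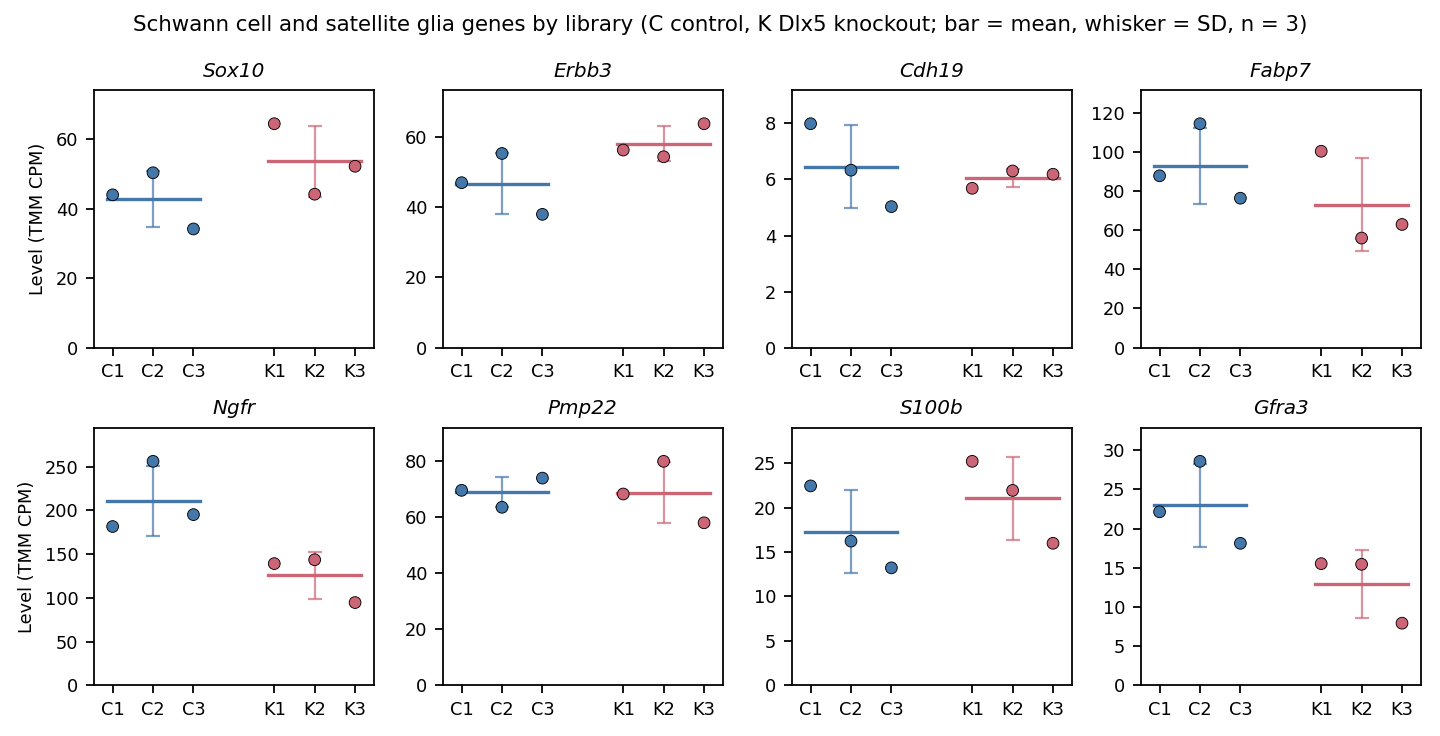
Level of each of the 8 genes (vertical axis, CPM after TMM normalization) in 3 control libraries (C1 to C3) and 3 Dlx5 knockout libraries (K1 to K3); bars are group means and whiskers the SD. Ngfr and Gfra3 are the genes whose groups do not overlap, and K3 is the lowest library for both.

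Sox10 encodes the transcription factor that defines neural crest glia from precursor to myelinating cell. Its level was 44.0, 50.4 and 34.2 CPM in control replicates 1, 2 and 3 and 64.5, 44.2 and 52.3 CPM in knockout replicates 1, 2 and 3. The highest library was a knockout and the lowest a control, but knockout replicate 2 lay within the range of the controls. Group means were 42.9 ± 8.16 and 53.7 ± 10.2 CPM (SD, n = 3 each), a log2 fold change of 0.31 with a 95% interval of -0.08 to 0.71 (adjusted p = 0.493, edgeR). The interval holds 0. The estimate depended on single libraries, from 0.17 without knockout replicate 1 to 0.45 without control replicate 2, and was 0.33 without knockout replicate 3.

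Erbb3, the neuregulin receptor that Sox10-expressing cells need to survive along axons, had an estimate of the same size as that of Sox10. Control libraries measured 47.0, 55.3 and 37.9 CPM and knockout libraries 56.3, 54.3 and 63.8 CPM. Here 2 of the 3 knockout libraries exceeded every control, while knockout replicate 2 lay just under control replicate 2. The log2 fold change was 0.31 (95% interval -0.01 to 0.62; unadjusted p = 0.0533, adjusted p = 0.399, edgeR). Over libraries left out it ran from 0.18 without control replicate 3 to 0.45 without control replicate 2, and was 0.23 without knockout replicate 3.

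Ngfr encodes the low-affinity neurotrophin receptor p75, which is carried by immature Schwann cells and by many sensory and sympathetic neurons. Control libraries measured 181.6, 256 and 195 CPM and knockout libraries 139, 144 and 94.6 CPM. Each knockout library thus lay below the lowest control, with knockout replicate 3 the lowest of all. Means of 211 ± 39.7 and 126 ± 27.1 CPM gave a log2 fold change of -0.75 (SE 0.18; 95% interval -1.17 to -0.33; unadjusted p = 0.00323), which did not pass after adjustment (adjusted p = 0.1315, edgeR). The estimate was -0.58 without knockout replicate 3 (adjusted p = 0.105) and -0.58 without control replicate 2 (adjusted p = 0.418), and between -0.87 and -0.81 when any other library was left out. With knockout replicate 3 left out 1.01% of all genes were called, and 0 of the 8 genes here. DESeq2, which called 3.12% of all genes, called Ngfr (log2 fold change -0.75, adjusted p = 0.00104) and no other of the 8. Without the filter edgeR called 2.27% of genes, and among them Ngfr (adjusted p = 0.00109) and Gfra3 (0.0238). Over 17 alternative settings the adjusted p of Ngfr ran from 0.00104 to 0.418 and that of Gfra3 from 0.0238 to 0.605.

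The promoter of Ngfr is shown because this gene had the smallest p of the 8. RefSeq's sequence (GRCm38.p6, chr11:95587649-95587948, minus strand, from 250 bases before to 50 bases after the start of transcription) is given from 5′ to 3′, with the only match to the motifs searched in capitals.
Ngfr: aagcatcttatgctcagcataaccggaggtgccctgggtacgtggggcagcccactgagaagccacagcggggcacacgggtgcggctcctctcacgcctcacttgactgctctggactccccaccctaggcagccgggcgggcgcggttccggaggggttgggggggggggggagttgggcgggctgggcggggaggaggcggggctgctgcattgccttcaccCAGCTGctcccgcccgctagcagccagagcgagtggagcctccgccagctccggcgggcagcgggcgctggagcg
The match is the E-box CAGCTG, 25 bases before the start. This motif stands in 16.3% of 32851 mouse promoters of the same length. The short sites of the Sox10 family, ACAAAG and ACAATG, searched on both strands as all motifs were, do not occur in this window and stand in 18.7% and 12.6% of all promoters. The window has a GC content of 71.7%, against a median of 52.7%.

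Gfra3 encodes the co-receptor through which artemin signals by way of Ret, and is known from Schwann cell precursors and from pain-sensing neurons. It measured 22.1, 28.6 and 18.1 CPM in controls and 15.5, 15.4 and 7.92 CPM in knockouts. The groups did not overlap, knockout replicates 1 and 2 were alike, and knockout replicate 3 was lower again. The log2 fold change of -0.85 (SE 0.27; 95% interval -1.48 to -0.22; unadjusted p = 0.0143) did not pass (adjusted p = 0.236, edgeR). Without knockout replicate 3 it was -0.58 (adjusted p = 0.235), without control replicate 2 it was -0.65 (adjusted p = 0.605), and at most it reached -1.01 without knockout replicate 2.

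Cdh19, a cadherin of Schwann cell precursors, had the lowest level of the 8 genes, with 35 to 82 counts in each library. Its level was 7.99, 6.33 and 5.03 CPM in controls and 5.68, 6.30 and 6.19 CPM in knockouts. The 3 knockout values lay inside the range of the controls. The log2 fold change was -0.10 (95% interval -0.62 to 0.43; adjusted p = 0.910, edgeR), and it turned to 0.08 without control replicate 1, so no direction can be given.

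Fabp7 encodes a fatty acid-binding protein of immature Schwann cells and satellite glia, and also of radial glia in the brain. Its levels were 87.8, 114 and 76.3 CPM in controls and 100.3, 56.0 and 62.9 CPM in knockouts. Knockout replicate 1 lay within the range of the controls, while the other two knockout libraries lay under all of them. The log2 fold change was -0.35 (95% interval -0.88 to 0.17; adjusted p = 0.576, edgeR). It was -0.65 without knockout replicate 1 (adjusted p = 0.1996) and -0.17 without control replicate 2 (adjusted p = 0.890). Without knockout replicate 3 it was -0.26. Knockout replicate 3, with its brain transcripts, was not high for Fabp7.

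RefSeq's promoter of Fabp7 (GRCm38.p6, chr10:57784673-57784972, plus strand, the same window) is shown as that of the gene with the highest mean level per length in controls. Capitals mark the only match to the motifs searched.
Fabp7: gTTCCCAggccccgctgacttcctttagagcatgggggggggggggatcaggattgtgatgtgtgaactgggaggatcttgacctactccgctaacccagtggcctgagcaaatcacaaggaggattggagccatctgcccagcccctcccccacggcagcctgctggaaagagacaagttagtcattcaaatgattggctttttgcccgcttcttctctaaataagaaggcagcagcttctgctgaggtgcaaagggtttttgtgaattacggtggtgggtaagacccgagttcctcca
The match is to the Rbpj motif TGGGAA, read on the opposite strand as TTCCCA, a motif found in 25.6% of promoters. As in Ngfr, ACAAAG and ACAATG do not occur in the window, nor do GCCNNNGGC (Tfap2, in 16.6% of promoters) and ATGCAAAT (the POU octamer, in 1.74%). The GC content is 54.0%. RefSeq promoters were matched for 4 of the 8 genes, the other two being S100b and Pmp22.

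Pmp22 encodes a membrane protein of compact peripheral myelin that mesenchymal cells also make. It measured 69.5, 63.5 and 73.9 CPM in controls and 68.2, 79.9 and 57.9 CPM in knockouts, with both the highest and the lowest library among the knockouts. The log2 fold change was -0.01 and its 95% interval, -0.29 to 0.28, was the narrowest of the 8. The sign changed with single libraries, from -0.14 without knockout replicate 2 to 0.10 without knockout replicate 3.

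S100b encodes a calcium-binding protein of Schwann cells that is also made by chondrocytes. Its level was 22.5, 16.2 and 13.2 CPM in controls and 25.2, 22.0 and 16.0 CPM in knockouts, and the groups overlapped. The log2 fold change was 0.27 (95% interval -0.25 to 0.79; adjusted p = 0.678, edgeR), between 0.12 without control replicate 3 and 0.50 without control replicate 1. It was 0.44 without knockout replicate 3. The cartilage markers moved between libraries as well: the summed level of 6 cartilage genes was 4181, 1615 and 2286 CPM in controls and 4055, 5176 and 1776 CPM in knockouts, with none at 0. The 3 libraries with the most cartilage RNA, control replicate 1 and knockout replicates 1 and 2, were also the 3 highest for S100b. The part of cartilage in the S100b values was not tested.

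**Figure D2:**
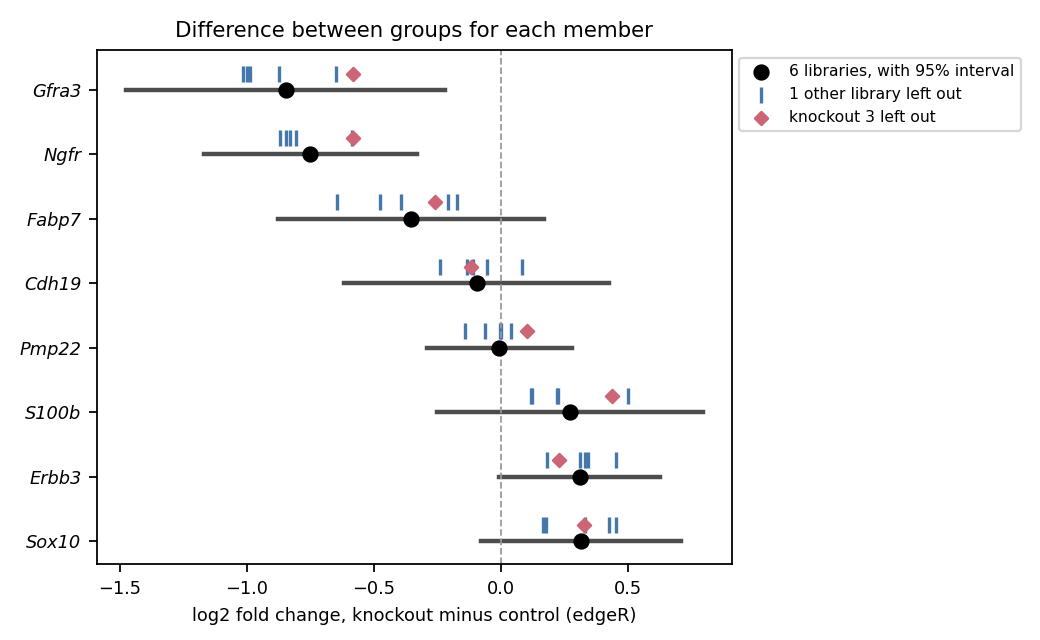
Log2 fold change (horizontal axis, knockout minus control) of each gene from edgeR with all 6 libraries (black, with its 95% interval), with 1 library left out in turn (blue marks) and without knockout replicate 3 (red). Only the intervals of Gfra3 and Ngfr lie entirely below 0, and without knockout replicate 3 both estimates stand at -0.58.

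Compared over the 6 libraries, the 8 genes did not share 1 profile. Likeness was measured as the root mean square difference between log2(CPM + 1) values after each gene's mean was subtracted. The most alike pairs were Ngfr with Gfra3, at 0.155, and Sox10 with Erbb3, at 0.161. The least alike pair was Erbb3 with Gfra3, at 0.673, although both are receptors of this lineage. Among 11351 other genes with a mean of at least 5 CPM, the nearest to Ngfr were Rgs10 (0.0445), Hspa12a (0.05) and Mtcl1 (0.0550), with log2 fold changes of -0.85, -0.84 and -0.80. Each of these 3 lay lower in every knockout library than in every control, which follows from their choice by likeness to Ngfr. Their fold changes are likewise no separate result. Nearest to Gfra3 were Ttc9 (0.0951), Usp51 (0.0970) and Fgf13 (0.105). Nearest to Sox10 were Kif19a (0.0803), Gfer (0.0942) and Tssc1 (0.0952), and to Erbb3 Snapc4 (0.0398), Spg21 (0.0684) and Ncapg (0.0693). Fabp7 had no neighbour closer than Cdk5rap1, at 0.116, while Pmp22 lay within 0.0323 of Morc4, Cdh19 within 0.0405 of Sdccag3 and S100b within 0.0686 of Pcbd2. These are likenesses over 6 libraries of one tissue, which differed in depth and in the summed levels of cell type markers.

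Levels of different genes can be compared only per length, here as CPM per kilobase of merged exons. In controls the order from high to low was Fabp7 (74.3 ± 15.6), Ngfr (61.2 ± 11.5), Pmp22 (29.3 ± 2.22), Sox10 (14.1 ± 2.68), S100b (11.7 ± 3.17), Gfra3 (11.5 ± 2.64), Erbb3 (7.77 ± 1.44) and Cdh19 (1.51 ± 0.346 CPM per kilobase; SD, n = 3). Library ranges overlapped between the neighbours Fabp7 and Ngfr, Sox10 and S100b, S100b and Gfra3, and Gfra3 and Erbb3, so these cannot be ordered. The order in knockouts was the same except that Erbb3 (9.66 ± 0.827) stood above Gfra3 (6.49 ± 2.18), with no overlap between them there. Pmp22 (29.2 ± 4.66) then overlapped Ngfr (36.5 ± 7.86), which it did not do in controls.

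All 8 genes are protein-coding. On GRCm38 (GENCODE M21) Sox10 lies at chromosome 15 from 79154908 to 79165240 on the minus strand, Erbb3 at chromosome 10 from 128567523 to 128589652 on the minus strand, and Ngfr at chromosome 11 from 95568818 to 95587735 on the minus strand. Gfra3 lies at chromosome 18 from 34689898 to 34720387 on the minus strand and Cdh19 at chromosome 1 from 110888326 to 110977584 on the minus strand. On the plus strand lie Fabp7 (chromosome 10, 57784881 to 57788450), S100b (chromosome 10, 76253853 to 76261159) and Pmp22 (chromosome 11, 63128982 to 63159547). No exon of the 8 shared a base with an exon of another annotated gene, on either strand, in that annotation.

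The partners of the 2 receptors with lower levels were next examined. The GDNF family list held 8 ligands and receptors, of which 7 were kept, with 0 called. At an unadjusted p under 0.05, 2 were lower and 0 higher. Ret, the signalling receptor that Gfra3 needs, measured 87.3, 114 and 95.3 CPM in controls and 38.3, 56.0 and 23.2 CPM in knockouts. All 3 knockout libraries lay below the lowest control, a log2 fold change of -1.35 with an SE of 0.27 (adjusted p = 0.0806, edgeR). Leaving out knockout replicate 3 gave a call at -1.07 (adjusted p = 0.0338), and Ret was called in 6 of 17 alternative settings, a looser threshold of 0.1 included (adjusted p from 8.161e-06 to 0.324). The co-receptor Gfra2 had an estimate of -0.47 and Gfra1, the receptor for GDNF itself, of 0.35, with adjusted p of 0.316 and 0.420. Without knockout replicate 3 these estimates were -0.30 and 0.13. Artn, the ligand of Gfra3, lay near the filter, with control and knockout means of 1.17 ± 0.273 and 1.30 ± 0.392 CPM.

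Neurotrophins and partners of Ngfr numbered 11, all kept, with 0 called and a median of -0.07; 3 had an unadjusted p under 0.05, all lower. Among them were Ntrk3, the receptor for neurotrophin-3 (log2 fold change -0.82, adjusted p = 0.123), and the p75 partner Lingo1 (-0.26, 0.276). Ntrk3 measured 81.1, 106.7 and 95.2 CPM in controls and 48.0, 71.1 and 42.0 CPM in knockouts. As for Ngfr, no knockout library reached the lowest control. Sort1 of this list lay higher without overlap, measuring 81.7, 81.2 and 68.9 CPM in controls and 83.9, 82.6 and 110 CPM in knockouts. Its estimate of 0.26 shrank to 0.10 once knockout replicate 3 was left out. Of the 11 estimates in the list, 4 lay above 0 and 7 below.

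Neuregulin and ErbB genes had a median of -0.08 over 10 kept of 11, with 0 called. At an unadjusted p under 0.05, 4 were lower and 0 higher. The 4 included the neuregulins Nrg3 (-1.05, adjusted p = 0.0972, edgeR) and Nrg1 (-0.54, 0.359), both made by neurons. The others were the proteases Adam10 (-0.30, 0.238) and Bace1 (-0.28, 0.286), which cut cell surface proteins including neuregulin. Nrg1 measured 17.0, 27.0 and 19.4 CPM in controls and 13.9, 18.4 and 11.6 CPM in knockouts, with overlap, and its estimate was -0.32 without control replicate 2. Without knockout replicate 3 the estimates of Nrg1 and Nrg3 were -0.40 and -0.87. Erbb2, the partner of Erbb3, measured 58.2 ± 4.45 and 63.4 ± 5.77 CPM (log2 fold change 0.13, adjusted p = 0.650), and the estimate ran from 0.07 without control replicate 2 to 0.20 without knockout replicate 1.

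Schwann lineage transcription factors other than Sox10 numbered 16, all kept, with 0 called and a median of 0.11. At an unadjusted p under 0.05, 2 were higher and 1 lower, against 5.6% and 7.23% of all genes. Groups did not overlap for 4 higher and 1 lower, against 9.48% and 9.71% of all genes. Sox8, a close relative of Sox10, measured 17.7, 12.7 and 10.6 CPM in controls and 19.5, 23.9 and 23.9 CPM in knockouts (log2 fold change 0.71, adjusted p = 0.162), without overlap. Yap1, a growth regulator, was also higher without overlap (0.27, adjusted p = 0.188, edgeR). So were Etv1 (0.37, 0.408) and Pou3f2 (1.09, 0.398), the latter near the filter. Sox2, which marks immature Schwann cells and epithelia, was lower without overlap (-0.47, adjusted p = 0.230, edgeR). Without knockout replicate 3 the estimates of Sox8, Yap1 and Sox2 were 0.66, 0.24 and -0.49, and that of Pou3f2 was 0.71.

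Precursor and immature Schwann cell genes beyond the 8 numbered 16, of which 15 were kept (Pmp2 had no count in any library). Their median was -0.16, with 0 called and 3 lower and 0 higher at an unadjusted p under 0.05. Scn7a, a sodium channel of Schwann cells and some neurons, measured 36.1, 47.9 and 36.7 CPM in controls and 20.0, 23.6 and 8.07 CPM in knockouts. The groups did not overlap, at a log2 fold change of -1.25 (adjusted p = 0.154, edgeR). Scn7a was called in 4 of 17 alternative settings (adjusted p from 0.000691 to 0.474), among them the one that left out knockout replicate 3, with -0.89 (adjusted p = 0.0383). Adgrg6, the adhesion receptor that drives Schwann cells to myelinate, had an estimate of -0.45 (adjusted p = 0.310) and Egfl8 of -0.60 (0.337). Knockout replicate 3 was the lowest library for both, and without it the estimates were -0.27 and -0.41.

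**Figure D3:**
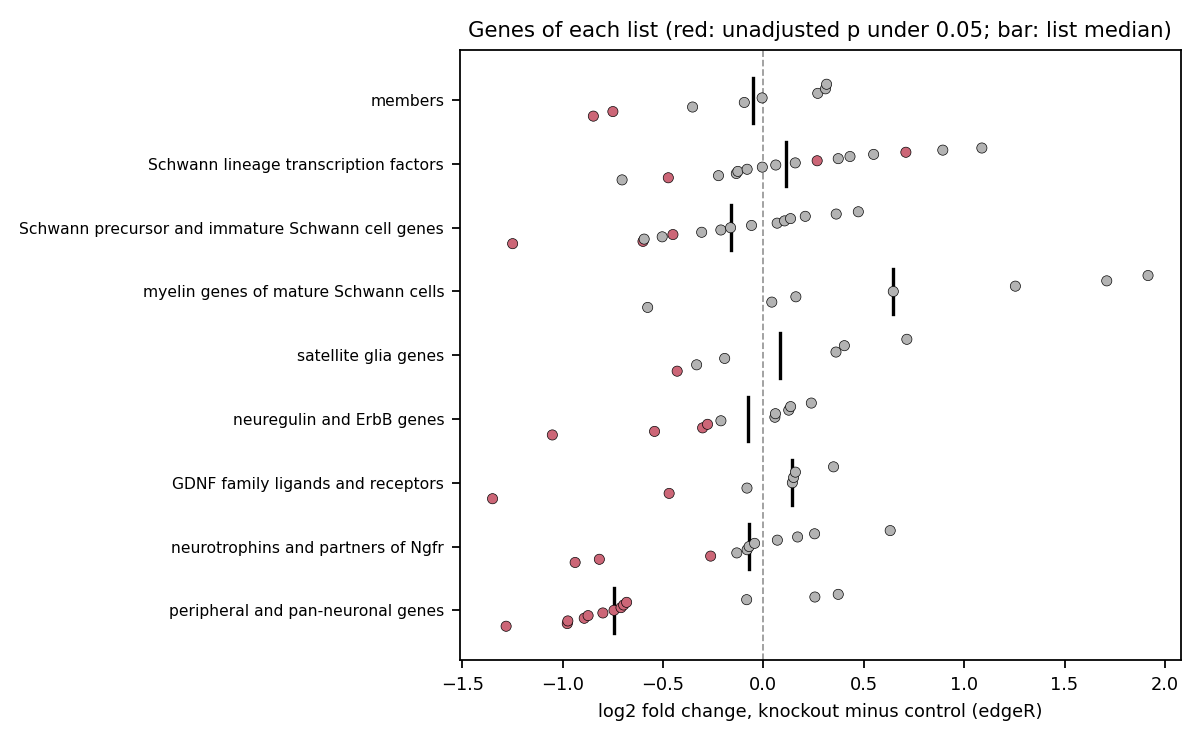
Log2 fold change (horizontal axis, knockout minus control, edgeR) of every kept gene of 9 lists; points are genes, red where the unadjusted p was under 0.05, and black bars are list medians. Of the 13 neuronal genes 10 are red and below 0, whereas the 8 members spread to both sides of 0 around a median of -0.05.

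Genes of satellite glia, all 6 of them kept, had a median of 0.08 with 0 called. Gja1, a gap junction protein found in many tissues, was lower without overlap (285 ± 27.7 and 212 ± 18.2 CPM; log2 fold change -0.43, adjusted p = 0.123), and Glul, the glutamine synthetase of satellite glia and astrocytes, had an estimate of 0.36 (adjusted p = 0.479), 0.11 without knockout replicate 3.

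Of 11 myelin genes of mature Schwann cells 7 were kept, with a median of 0.65, 0 called and 0 with an unadjusted p under 0.05. For Mbp and Mag the estimates rested on knockout replicate 3. Mbp, myelin basic protein, measured 34.1, 32.6 and 34.2 CPM in controls and 39.3, 21.7 and 177 CPM in knockouts. Mag, an adhesion protein between myelin and axon, measured 1.84, 1.54 and 2.59 CPM in controls and 2.01, 1.30 and 18.3 CPM in knockouts. Without knockout replicate 3 the log2 fold changes turned from 1.26 to -0.15 for Mbp and from 1.92 to -0.24 for Mag. Ncmap, a myelin protein of Schwann cells whose estimate was the list median, went the other way, with 6.48, 3.25 and 5.75 CPM in control replicates 1, 2 and 3 and 9.71, 11.1 and 3.47 CPM in knockout replicates 1, 2 and 3. Its estimate of 0.65 was 1.03 without knockout replicate 3 (adjusted p = 0.161) and 0.33 without knockout replicate 2. Ugt8a, an enzyme of myelin lipid synthesis, had an estimate of -0.58, and of -0.96 without knockout replicate 3. In that library, then, Mbp and Mag, which oligodendrocytes of the brain share, were the highest of the 6 libraries, while Scn7a, Ngfr and Gfra3 were the lowest.

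**Figure D4:**
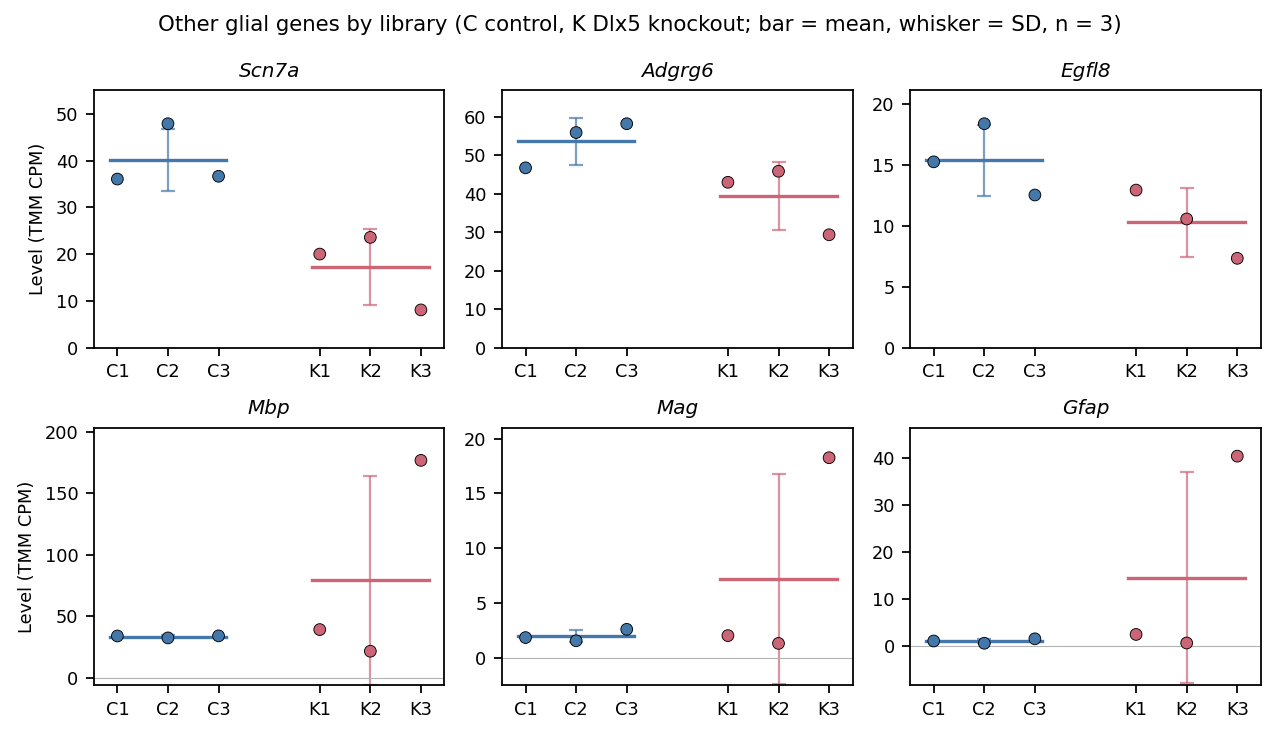
Level (vertical axis, CPM after TMM normalization) of 6 further glial genes in control (C1 to C3) and Dlx5 knockout libraries (K1 to K3); bars are means and whiskers the SD. K3 is the lowest library for Scn7a, Adgrg6 and Egfl8 and the highest for Mbp, Mag and the astrocyte gene Gfap.

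Markers of other cell types are given for comparison, since a bulk sample cannot tell fewer cells of a type from less RNA per cell. Of 13 neuronal genes, all kept, 0 were called and 10 had an unadjusted p under 0.05, all lower, with a median of -0.74. Their summed level was 3924 to 4929 CPM in controls and 1936 to 2678 CPM in knockouts, with no overlap and no marker at 0. Nefm, a neurofilament, had a log2 fold change of -0.97 (adjusted p = 0.0566) and the neuronal tubulin Tubb3 of -0.80 (0.0606). Both were called without knockout replicate 3, at -0.86 (adjusted p = 0.0372) and -0.68 (0.0378), and in 9 and 7 of 17 alternative settings in all (adjusted p up to 0.249 and 0.3001). The part of neurons in the values of Ngfr and Gfra3, which neurons also make, was not tested.

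Of 12 brain glia genes 9 were kept. Their list had 3 higher and 1 lower at an unadjusted p under 0.05, and Olig1 was at 0 in at least 1 library. The summed level was 75.4 to 81.6 CPM in controls, 69.4 and 60.1 CPM in knockout replicates 1 and 2, and 277 CPM in knockout replicate 3. The 7 brain neuron genes, of which 6 were kept, summed to 4.38 to 13.1 CPM in controls and to 21.9, 5.65 and 166 CPM in the knockouts. Slc1a2, a glutamate transporter of astrocytes, measured 150.0 CPM in knockout replicate 3 and at most 20.8 CPM elsewhere. Gad1, of inhibitory neurons, measured 52.7 CPM there and at most 2.49 CPM elsewhere. Not every brain glia gene was high in that library, and of the 9 estimates 6 lay above 0 and 3 below. Ncan, the lower gene of that list, did not overlap between groups (log2 fold change -0.51, adjusted p = 0.0982, edgeR). It measured 43.8, 53.3 and 46.9 CPM in controls and 37.2, 30.0 and 34.0 CPM in knockouts. The estimates for Sox10 and Erbb3 stayed above 0 without knockout replicate 3 (0.33 and 0.23), and those for Ngfr and Gfra3 stayed below 0 (-0.58 each).

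Melanocytes share Sox10 and Erbb3 with glia. Of 9 melanocyte genes 4 were kept, with 2 higher and 1 lower at an unadjusted p under 0.05. The summed level was 48.4 to 55.2 CPM in controls and 50.3 to 53.4 CPM in knockouts, most of it from Kit, which other cells also make. Kit was the 1 lower gene, at 39.0, 46.4 and 49.9 CPM in controls and 32.1, 37.5 and 32.5 CPM in knockouts. Its groups stood apart (estimate -0.40, adjusted p = 0.184, edgeR). The pigment enzyme Dct was higher without overlap, measuring 2.16, 0.162 and 0 CPM in control replicates 1, 2 and 3 and 6.04, 3.04 and 7.02 CPM in knockout replicates 1, 2 and 3 (log2 fold change 2.77, adjusted p = 0.238, edgeR). Without control replicate 1, which held most of the control counts, the estimate was 5.57 (adjusted p = 0.0752). Of the 3 knockout libraries, 2 exceeded every control for Erbb3 and were also the 2 highest for Dct. The part of melanocytes in the values of Sox10 and Erbb3 was not tested.

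**Figure D5:**
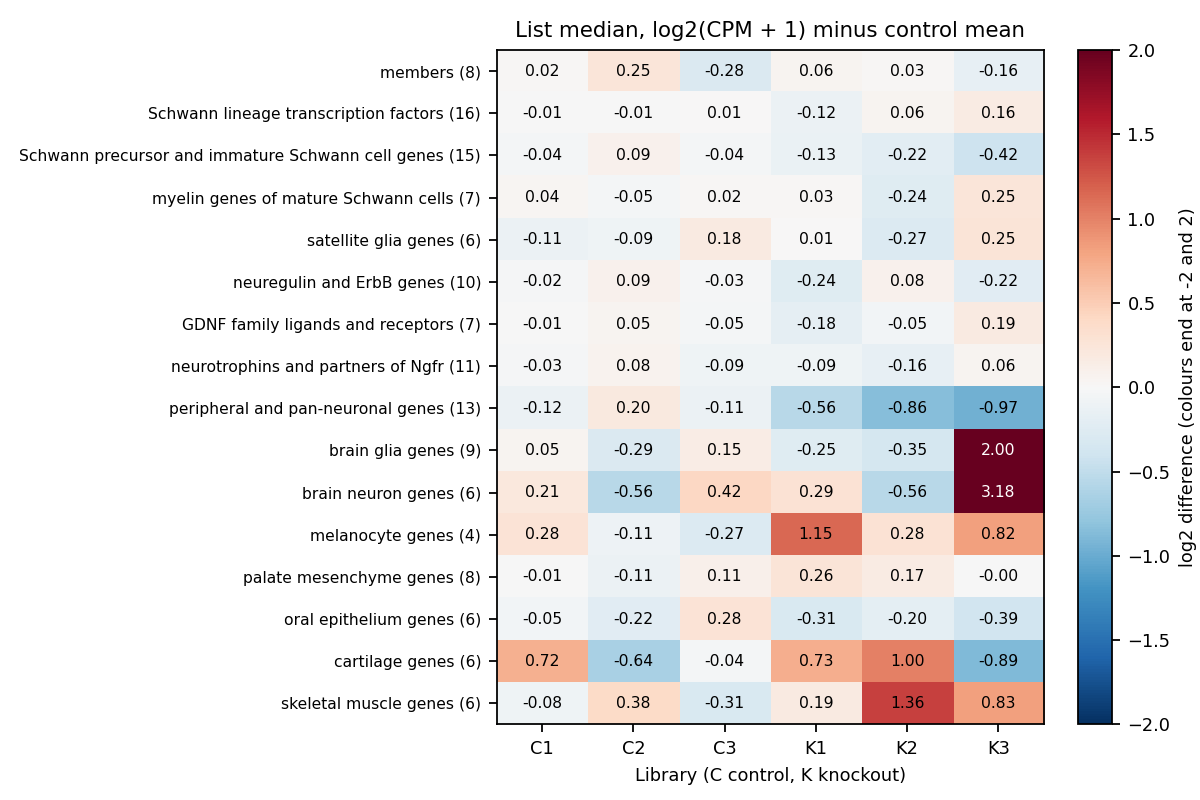
Median over each list (number of genes in brackets) of log2(CPM + 1) minus the control mean, by library (C1 to C3 control, K1 to K3 knockout); colours show the value printed in each cell. The 8 members stay between -0.28 and 0.25 in all libraries, neuronal genes are between -0.97 and -0.56 in the knockouts, and brain genes stand out in K3.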

How the data were processed

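RNA of 3 control and 3 Dlx5 knockout libraries was measured by sequencing after extraction on RNeasy columns and TruSeq mRNA library preparation, per the labels' protocols. Per the submitters' processing notes, STAR 2.4.1d, Partek and build mm10 were used; annotation, counting settings and strand handling: not given in the sources used here. The deposited table holds estimated counts, not scaled to a common total (64.5% of values above 0.5 are whole within 0.001); 1 column matched no labelled sample and was left out. Counts were rounded. Genes with a mean of at least 1 CPM were tested with edgeR 4.0.16 (R 4.3.3; quasi-likelihood, TMM, Benjamini-Hochberg over all genes kept), a script checked on simulated data. Levels are TMM-normalized CPM. DESeq2 1.42.0 and limma 3.58.1 (log2 of CPM plus 1 or 0.5) were alternatives. Annotation came from GENCODE M21 and promoters from RefSeq. The rule for names took all 8 members, from other lists up to 4 kept genes with the smallest p and, for brain lists, the 2 highest in any library, and for each member the 3 most alike genes; Erbb2, Artn and Kit were added by role or after their values were seen, and some genes that the rule takes are not reported here. Members and lists were chosen with earlier results of these data known. Lists for oral epithelium and skeletal muscle, of 6 genes each, had 0 called (at an unadjusted p under 0.05, 2 lower and 4 higher respectively).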

Additional observations from a re-analysis of the deposited data

How the results depend on the processing

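For the 8 genes, 127 of 136 values under alternatives kept their direction and their side of the threshold, 3 passed it (Ngfr under DESeq2 and without a filter, Gfra3 without a filter) and 6 changed sign. The 6 belong to Pmp22 (0.0054 without a filter, -0.14 to 0.10 over libraries left out, 0.10 with the filter recomputed without knockout replicate 3) and Cdh19 (-0.24 to 0.085 over libraries left out). Of the 8 genes, 2 were called without a filter and 1 by DESeq2, and 0 in the other settings. Leaving out 1 library moved their median between -0.14 and 0.04. The number of all genes called was 1 of 16218 and depended on the method: 41 with library totals in place of TMM, 679 without a filter, 74 with a filter of 5 CPM, 506 with DESeq2, 97 and 96 with limma-trend at pseudocounts of 1 and 0.5, and 299 at a threshold of 0.1. With 1 library left out it was 0 to 164, namely 164 for knockout replicate 3, 6 for control replicate 1, 4 for control replicate 2 and 0 for each of the rest. It was 167 for knockout replicate 3 with the filter recomputed, an alternative chosen after seeing the data. With a replicate block edgeR called 0 genes (1826 at an unadjusted p under 0.05), and Dlx5 had an adjusted p of 0.062. Same-numbered libraries of the 2 groups did not deviate together (correlations of -0.0138, -0.0107 and 0.0198), so the numbers are not taken to pair them. Dlx5 also missed the threshold in the 3 fits with 0 calls after a library was left out (adjusted p up to 0.107).

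Other named genes changed sign without knockout replicate 3, and over libraries left out ran from -0.15 to 1.69 for Mbp, -0.24 to 2.396 for Mag, -0.049 to 0.29 for Gfra4, -0.47 to 3.04 for Slc17a7 and -1.55 to 3.52 for Gad2. With the filter recomputed the first 4 kept those lowest values (-0.15, -0.24, -0.049 and -0.47). Artn, near 1 CPM, ran from -0.11 to 0.34. The cause was not tested. Cdh19 rested on 35 to 82 counts in each library.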

Other observations

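Ratios of counts between genes of the same library do not depend on how libraries are scaled. The ratios below were chosen after the levels had been seen, so they are given as descriptions with no test. Ngfr had 4.12, 5.08 and 5.71 counts per count of Sox10 in control replicates 1, 2 and 3 and 2.16, 3.25 and 1.81 in knockout replicates 1, 2 and 3. Gfra3 had 0.471, 0.517 and 0.477 counts per count of Erbb3 in controls and 0.276, 0.284 and 0.124 in knockouts. Ret had 1.98, 2.27 and 2.79 counts per count of Sox10 in controls and 0.593, 1.27 and 0.444 in knockouts. In each of these ratios the knockout libraries lay below all controls. Fabp7, which overlapped between groups as a level, did not overlap per count of Sox10, at 1.99, 2.27 and 2.23 in controls and 1.55, 1.27 and 1.20 in knockouts. Erbb3 per count of Sox10 overlapped, at 1.07, 1.10 and 1.11 in controls and 0.872, 1.23 and 1.22 in knockouts. Where a ratio differs between groups, it does not show which of the 2 genes differs.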
